A study of Penicillium oxalicum with 9 samples.

Results

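Penicillium oxalicum is a filamentous fungus that secretes enzymes able to break down starch and plant cell walls. The genes considered here are those whose transcripts stood higher in the strain MuPOX08340 than in each library of the strains MuPOX01907 and Ku70. A gene ID was a member where the lowest FPKM (fragments per kilobase of gene, scaled to library size) of the 3 MuPOX08340 libraries was at least 5 and at least 2 times the highest FPKM of the other 6 libraries. Of the 9834 IDs listed, 74 met this rule, which is 0.752% of them. The members were thus chosen by their FPKM in MuPOX08340 against the other 6 libraries, and their height in MuPOX08340 is given below as a description, without a test.

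MuPOX08340 and MuPOX01907 are mutants of the genes POX08340 and POX01907, and Ku70, itself a mutant by its labels, is the strain they were set against, with 3 libraries per strain that carry the letters F, S and T. Ku70 is a DNA repair protein, and fungal strains without it are common hosts for targeted gene replacement. The study is described as a search into transcription factors that control amylase genes, and its title speaks of a deletion of POX01907. All mycelia were grown for 24 h. The sample titles give 1% starch for both mutants and 1% Avicel, a microcrystalline cellulose, for Ku70, while the growth protocol repeated for each of the 9 libraries names Avicel, so that strain and stated medium cannot be told apart in any comparison with Ku70. That protocol also names spores of MuKu70 for all 9. The labels do not say how POX08340 was altered, how many transformants each mutant stands for, whether the mutants also carry the Ku70 mutation, or whether F, S and T were separate cultures, and p-values thus measure only the spread between these libraries. In bulk RNA, a transcript made in fewer hyphae and less transcript per hypha cannot be told apart.

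A transcription factor can raise or lower the transcription of the genes it binds, and the products of those genes can in turn act on others, so that a transcriptome of a mutant does not separate direct from indirect targets. In filamentous fungi, genes that serve one pathway, secondary metabolite synthesis above all, often lie side by side on a chromosome and are switched on and off together. The files give only ID numbers with no gene names or products, and none of the IDs matched the RefSeq table of this species (0 matches), so no function is given to a member and no sequence is shown. The order of the ID numbers is used below as an order of IDs, and their places in the genome were not analysed here.

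Expected counts ranged from 14412296 to 14802260 per library. Over 3 libraries each, MuPOX08340 held 0 reads of its targeted transcript POX08340, MuPOX01907 held 666 and Ku70 2759, whereas POX01907 had 5207 reads in MuPOX08340, 5 in MuPOX01907 and 4613 in Ku70. POX08340 was thus also lower in MuPOX01907 than in Ku70, at 8.26, 8.01 and 7.28 against 30.6, 35.7 and 30.6 FPKM in F, S and T. Ku70 F stood apart from the other two Ku70 libraries: the Pearson correlation of log2(FPKM + 1) across genes, which are not independent replicates, reached 0.918 between F and S and 0.909 between F and T, whereas it lay between 0.978 and 0.995 within each of the other groups and between Ku70 S and T. Counts of calls, and the members whose call changes, are therefore also given without Ku70 F.

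**Figure D1:**
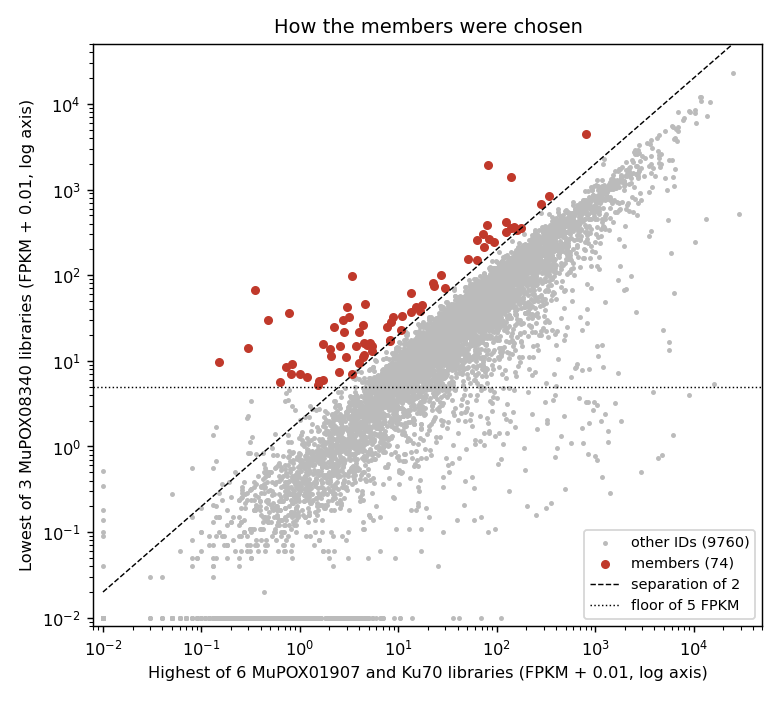
Lowest FPKM of the 3 MuPOX08340 libraries (vertical axis) against the highest FPKM of the 6 MuPOX01907 and Ku70 libraries (horizontal axis) for every ID, both on log axes after adding 0.01. The 74 members, in red, lie above the floor of 5 FPKM and above the dashed line of 2-fold separation.

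The members ranged over almost 3 orders of level in MuPOX08340 and were mostly weak elsewhere. Their group means in MuPOX08340 ran from 5.78 to 4587 FPKM with a median of 39.6, against medians of 3.42 FPKM in MuPOX01907 and 3.55 FPKM in Ku70. Over all IDs listed the same medians were 22.0, 16.5 and 22.6 FPKM. Of the members, 8 averaged under 10 FPKM in MuPOX08340, 45 lay between 10 and 100, 18 between 100 and 1000 and 3 above 1000 FPKM. Together they took 1.39% ± 0.0873 of all expected counts in MuPOX08340 (SD, n = 3), 0.232% ± 0.00921 in MuPOX01907 and 0.255% ± 0.0390 in Ku70. The ratio of mean FPKM had a median over members of 8.31 for MuPOX08340 over MuPOX01907 and 7.76 for MuPOX08340 over Ku70, or 8.79 without Ku70 F.

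The 3 most abundant members were POX01764, POX06595 and POX01651. POX01764 measured 4510.1, 4842 and 4409 FPKM in MuPOX08340 F, S and T, against 326, 316 and 240.2 FPKM in MuPOX01907 and 797, 574 and 474 FPKM in Ku70. POX06595 stood at 2439, 1912 and 2079.8 FPKM in MuPOX08340, with 75.4, 64.8 and 47.0 FPKM in MuPOX01907 and 46.0, 51.4 and 81.4 FPKM in Ku70. POX01651 reached 1972, 1410.4 and 1658 FPKM in MuPOX08340, against 138, 127 and 86.0 FPKM in MuPOX01907 and 58.2, 40.5 and 53.6 FPKM in Ku70. The effective lengths implied by their counts and FPKM, if FPKM was scaled to the total of expected counts, were 474, 443 and 458 bases, where the median over all members was 1127 bases. Without these 3 IDs the members still took 1.00% of the counts in MuPOX08340, 0.21% in MuPOX01907 and 0.221% in Ku70.

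Next in level came POX08359 at 888 ± 66.3 FPKM in MuPOX08340 (SD, n = 3), against 198 ± 5.26 FPKM in MuPOX01907 and 299 ± 66.5 FPKM in Ku70. With 100947 reads in the MuPOX08340 libraries, 22584 in MuPOX01907 and 34391 in Ku70 it held the most reads of any member. POX02009 averaged 817 ± 159 FPKM in MuPOX08340, 141 ± 7.28 FPKM in MuPOX01907 and 233 ± 76.2 FPKM in Ku70. POX00120 (463 ± 42.1 FPKM), POX00073 (462 ± 132 FPKM), POX06398 (417 ± 120.4 FPKM), POX08698 (417 ± 81.1 FPKM) and POX08702 (410.1 ± 47.4 FPKM) made up the rest of the 10 highest in MuPOX08340. POX00073 has an implied effective length of only 78 bases, so that its 1558 reads in MuPOX08340, 457 in MuPOX01907 and 224 in Ku70 give high FPKM values from few reads.

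**Figure D2:**
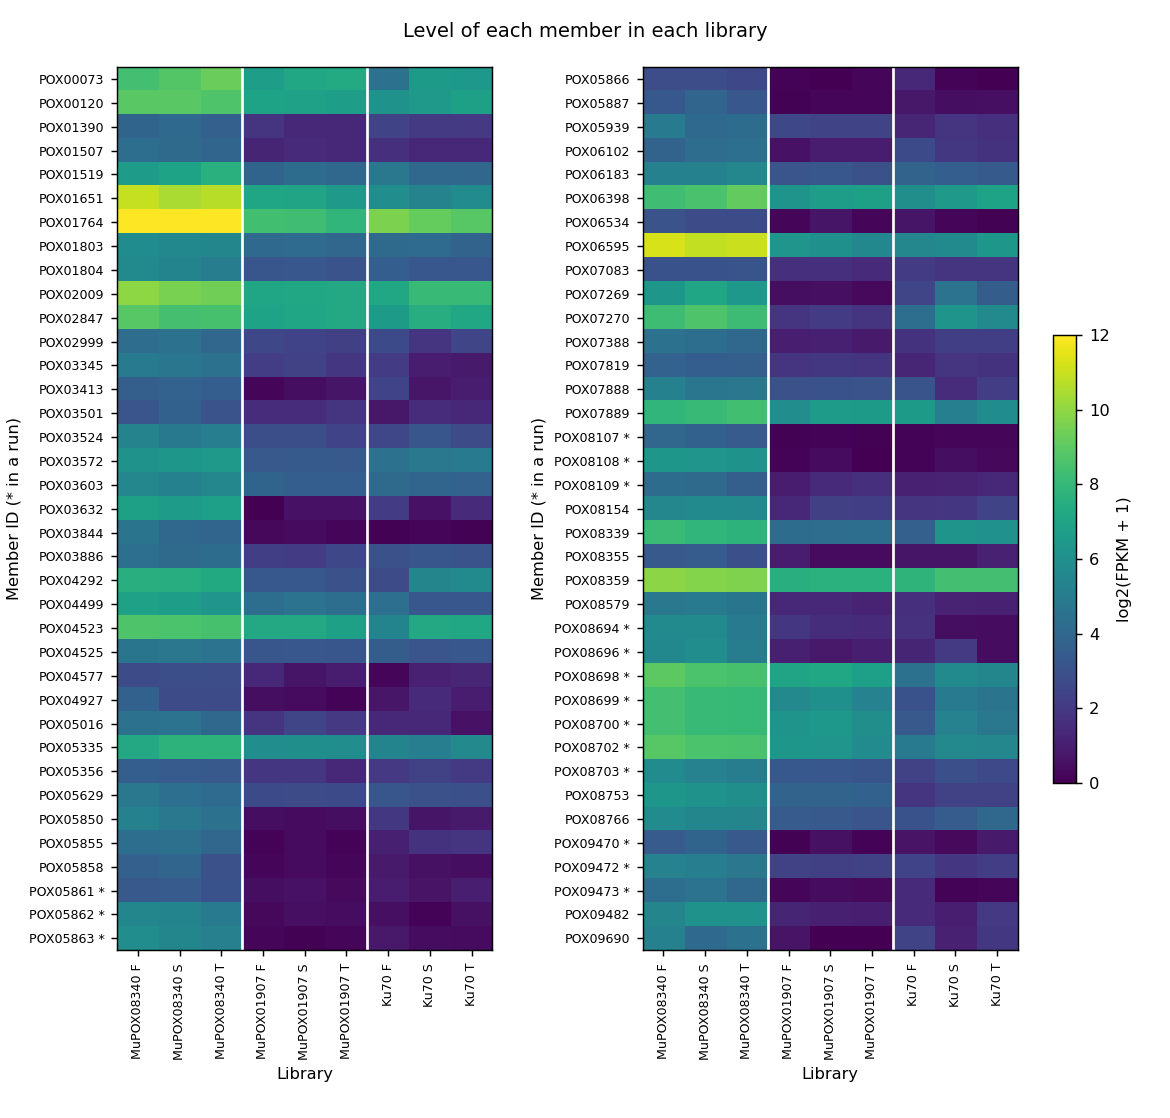
Level of each of the 74 members, as log2(FPKM + 1), in the 9 libraries; rows are members in the order of their ID numbers and an asterisk marks the 16 members in runs. The 3 MuPOX08340 columns are brighter than the other 6 in every row, as the rule requires, and some rows differ between MuPOX01907 and Ku70.

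At the other end were members with almost no transcript outside MuPOX08340. In 13 members the mean stayed under 1 FPKM both in MuPOX01907 and in Ku70, while in MuPOX08340 it ran from 5.78 to 74.7 FPKM. POX08108 had the widest separation, the lowest MuPOX08340 library lying 199 times above the highest of the other 6. It measured 81.1, 75.2 and 67.7 FPKM in MuPOX08340 F, S and T, against 0.07, 0.27 and 0.00 FPKM in MuPOX01907 and 0.07, 0.34 and 0.20 FPKM in Ku70. These values rest on 3272 reads in MuPOX08340, 5 in MuPOX01907 and 9 in Ku70, a ratio after TMM scaling of library sizes of 518 against MuPOX01907 (95% interval 222 to 1596, exact binomial) and of 362 against Ku70 (190.5 to 793). Such intervals cover counting error only. They take no account of the choice of this ID by the rule and by its separation, so they are a description and not a test.

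POX08107, POX05862, POX03844, POX05863, POX03632, POX06595 and POX09482 followed in separation, at 69.9, 64.1, 48.9, 48.2, 29.3, 23.5 and 14.4. POX03632, at 114, 98.1 and 109 FPKM in MuPOX08340, had 0.00, 0.49 and 0.48 FPKM in MuPOX01907 and 3.35, 0.48 and 1.69 FPKM in Ku70, where library F was the highest. POX03844 had 23.2, 15.5 and 14.2 FPKM in MuPOX08340, 0.18, 0.29 and 0.12 FPKM in MuPOX01907 and 0.06, 0.12 and 0.06 FPKM in Ku70. POX09482 had 43.1, 68.4 and 69.2 FPKM in MuPOX08340, with 1.34, 1.11 and 0.99 FPKM in MuPOX01907 and 1.76, 1.00 and 2.99 FPKM in Ku70. Over all members the median separation was 3.59. It reached 3 in 49 members, 5 in 27, 10 in 15 and 20 in 7.

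The choice of members drew a line through a continuum. Just inside the 2-fold separation were POX02847 (2.01), POX03886 (2.06) and POX07083 (2.098), and just outside it POX02093 (1.97), POX08027 (1.93) and POX07124 (1.92). Just above the floor of 5 FPKM were POX05866 with a lowest MuPOX08340 library of 5.15 FPKM and POX06534 with 5.66 FPKM, and just below it POX05854 with 4.61 and POX09469 with 4.21 FPKM. The highest of the other 6 libraries, which set the separation, was a Ku70 library in 53 members, Ku70 F in 25 of these, and a MuPOX01907 library in 21. Ku70 F was at least 2 times both Ku70 S and T in 10 members (13.5%), against 5.16% of the genes tested, and Ku70 S and T were both at least 2 times Ku70 F in 13 members (17.6%), against 8.4%. These shares are not matched for level. The members were weaker in Ku70 than all IDs (median 3.55 against 22.6 FPKM), and the part that few reads play in these ratios was not tested.

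Within MuPOX08340 the highest and lowest library of a member differed by a median ratio of 1.41, against 1.25 over the 7159 IDs with at least 5 FPKM in all 3 libraries. Library F was the highest in 43 members (58.1%, against 46.2% of those IDs), S in 21 (against 20.5%) and T in 10 (against 33.3%). Library T was the lowest in 49 members (66.2%, against 46.5%), F in 13 (against 37.1%) and S in 12 (against 16.4%). The ratio reached 2 in 3 members and was largest in POX09690, at 37.9, 16.02 and 22.2 FPKM in F, S and T, and in POX04927, at 12.1, 6.02 and 5.90 FPKM. It was smallest in POX07083, at 7.09, 7.11 and 7.59 FPKM, and in POX04577, at 5.88, 6.40 and 6.22 FPKM.

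**Figure D3:**
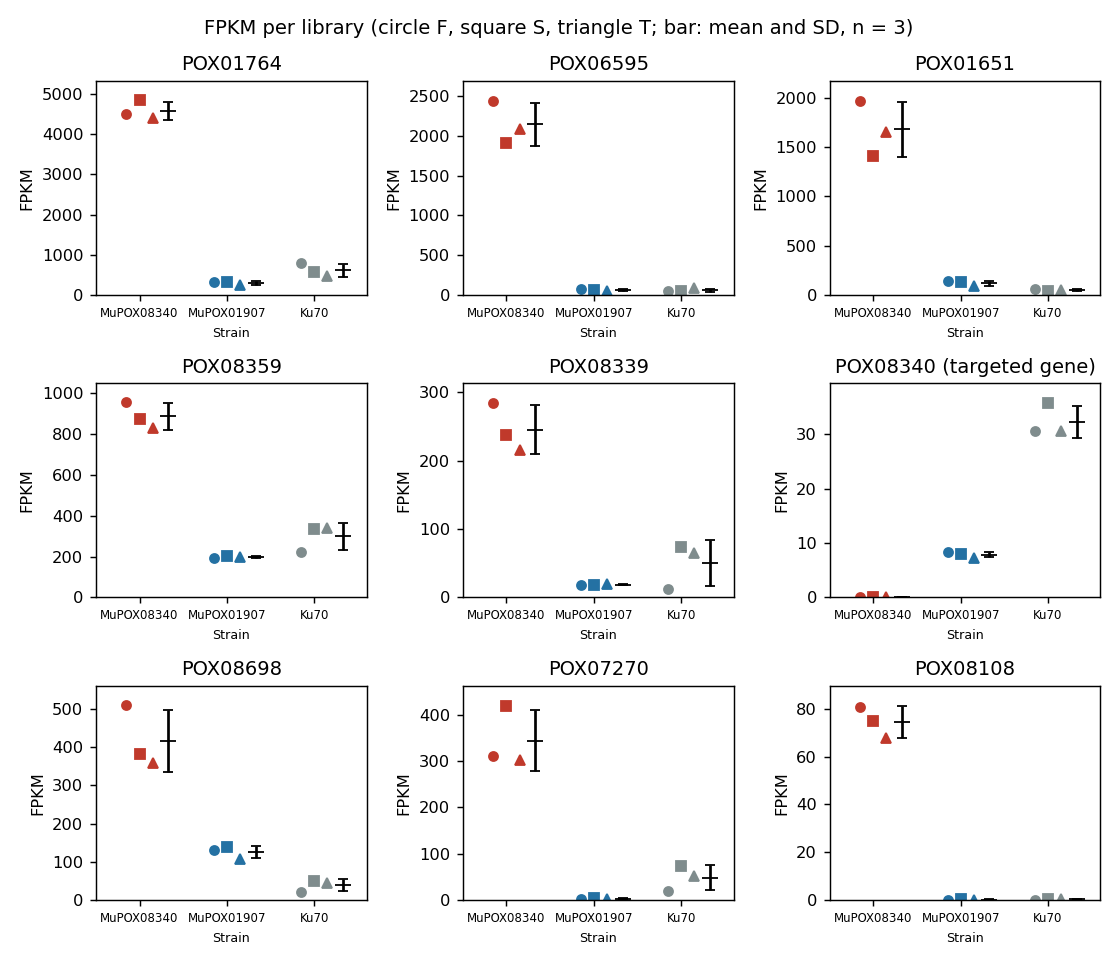
FPKM in each library for 8 members and for the targeted gene POX08340, with circles for F, squares for S, triangles for T and a bar for the mean and SD (n = 3). POX08340 is at 0 in the MuPOX08340 libraries, whereas the members stand above both other strains there. Among the members shown, each MuPOX01907 library lies above each Ku70 library in POX01651 and POX08698. Each lies below in POX01764, POX08359 and POX07270. In POX08339 these strains overlap, with Ku70 F below the MuPOX01907 libraries and Ku70 S and T above them.

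The member with the ID next to the targeted gene was POX08339. It measured 285, 237 and 215 FPKM in MuPOX08340 F, S and T, against 17.8, 18.8 and 19.0 FPKM in MuPOX01907 and 11.7, 73.9 and 65.6 FPKM in Ku70. The ratio of mean FPKM was 13.3 over MuPOX01907 and 4.88 over Ku70, and Ku70 F lay below the MuPOX01907 libraries while Ku70 S and T lay above them. POX08355 and POX08359 also lie within 20 ID numbers of POX08340. POX08355 was weak, at 8.66 ± 1.98 FPKM in MuPOX08340 (SD, n = 3) from 88 reads in all, against 5 reads in MuPOX01907 and 8 in Ku70. No member lies within 20 ID numbers of POX01907.

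Members sat side by side by ID number, which the rule did not use. Of the 140 IDs directly next to a member, 19 were themselves members (13.6%), against 0.752% of all IDs. The members formed 11 pairs of consecutive numbers, among them POX01803 and POX01804, POX07269 and POX07270, and POX07888 and POX07889. Runs of at least 3 members with steps of at most 2 numbered 4 and held 16 members: 7 from POX08694 to POX08703, and 3 each from POX05861 to POX05863, POX08107 to POX08109 and POX09470 to POX09473. Of the 13 members under 1 FPKM in both other strains, 7 lay in these runs.

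The longest run held POX08694, POX08696, POX08698, POX08699, POX08700, POX08702 and POX08703. POX08698 stood at 509.6, 383 and 359 FPKM in MuPOX08340 F, S and T, at 130, 139 and 107 FPKM in MuPOX01907 and at 21.3, 50.5 and 44.1 FPKM in Ku70. POX08699, POX08700 and POX08702 had the same order of the strains, at 291 ± 45.1, 294 ± 41.0 and 410.1 ± 47.4 FPKM in MuPOX08340, 50.6 ± 12.03, 72.0 ± 11.1 and 70.2 ± 13.4 FPKM in MuPOX01907 and 20.4 ± 11.9, 24.9 ± 15.04 and 41.7 ± 10.5 FPKM in Ku70 (SD, n = 3 each). POX08703 had this order too, at 41.6, 8.29 and 5.37 FPKM on average in MuPOX08340, MuPOX01907 and Ku70. In these 4 IDs and in POX08703 each MuPOX01907 library lay above each Ku70 library, as in 14.7% of all genes tested. POX08694 and POX08696 were instead low in both other strains: POX08694 had 50.8, 52.7 and 29.8 FPKM in MuPOX08340, 2.71, 1.95 and 1.81 FPKM in MuPOX01907 and 2.29, 0.37 and 0.33 FPKM in Ku70, and POX08696 had 48.1, 58.3 and 32.6 FPKM in MuPOX08340, 1.06, 0.75 and 1.04 FPKM in MuPOX01907 and 1.33, 3.13 and 0.30 FPKM in Ku70. The IDs skipped inside the run were weak everywhere: POX08695 averaged 2.68 FPKM in MuPOX08340, 1.95 in MuPOX01907 and 1.73 in Ku70, POX08697 had 4 reads in MuPOX08340 and 0 in the other strains, and POX08701 had 0 reads in all 9 libraries.

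This run begins at the ID after a stretch with the opposite pattern. By the mirrored rule, which asks for the same floor and separation in MuPOX01907 above the other strains, 169 IDs qualified, among them all 8 IDs from POX08686 to POX08693. POX08693, the last of these, averaged 9.89 FPKM in MuPOX08340, 829 FPKM in MuPOX01907 and 10.5 FPKM in Ku70, and the next ID, POX08694, averaged 44.4, 2.16 and 0.997 FPKM in the same strains. A like exchange occurred inside another run: POX09471, between the members POX09470 and POX09472, averaged 1.36 FPKM in MuPOX08340, 67.8 FPKM in MuPOX01907 and 0.55 FPKM in Ku70. In all, 6 members (8.11%) lay directly next to an ID of the mirrored rule, against 3.28% of all IDs. These 6 were POX03345, POX08154, POX08355, POX08694, POX09470 and POX09472.

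**Figure D4:**
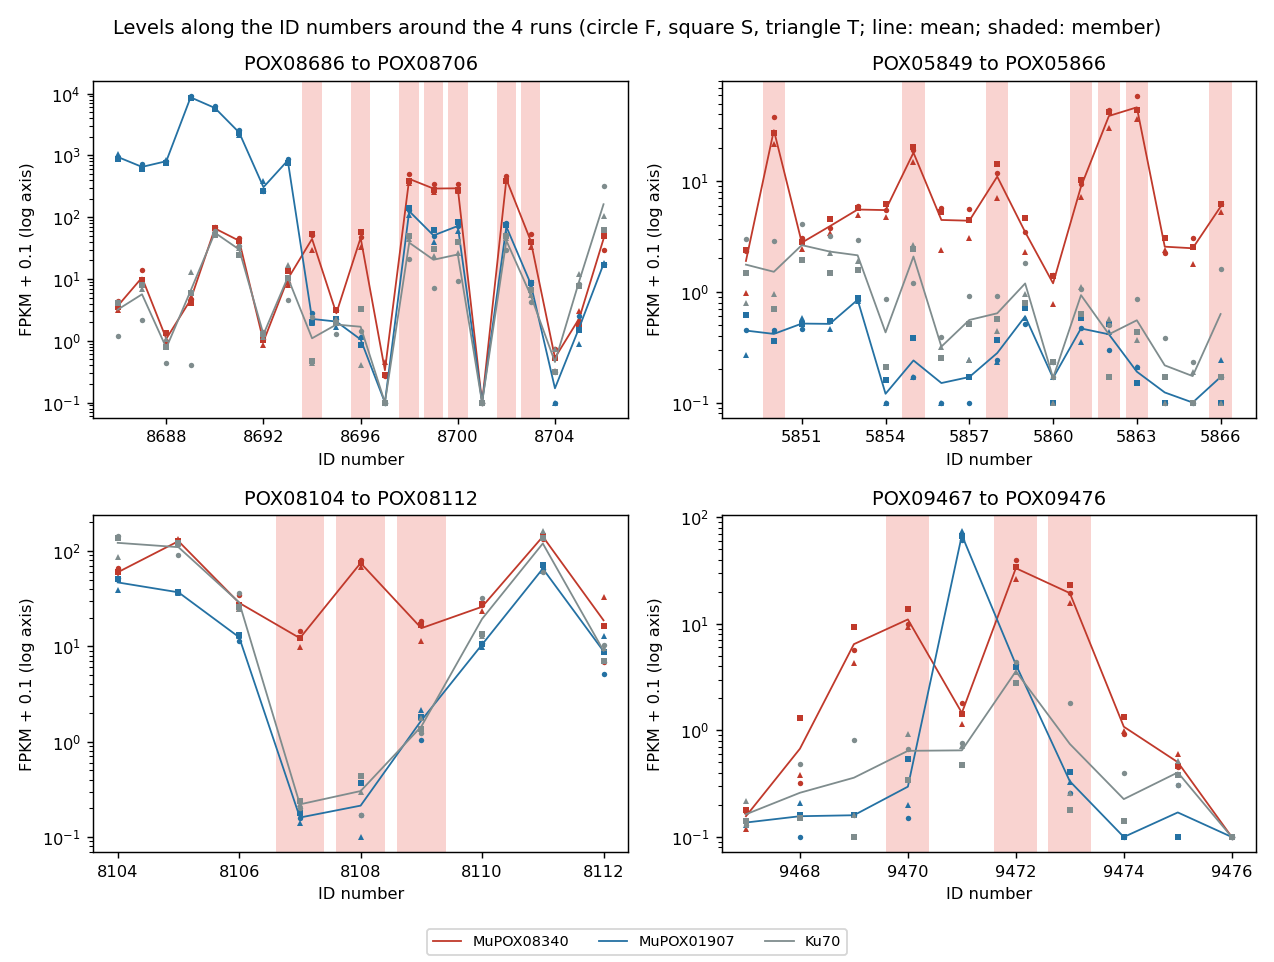
FPKM + 0.1 on a log axis along the ID numbers around the 4 runs, with points for libraries, lines for group means and shading for members. From POX08693 to POX08694 the strain with the highest level changes from MuPOX01907 to MuPOX08340, and POX09471 stands high in MuPOX01907 between members that stand high in MuPOX08340.

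In the run from POX08107 to POX08109 the IDs on both sides were expressed in all 3 strains, while the members were low outside MuPOX08340. POX08107 had 14.4, 12.03 and 9.79 FPKM in MuPOX08340, 0.06, 0.08 and 0.04 FPKM in MuPOX01907 and 0.10, 0.14 and 0.12 FPKM in Ku70, and POX08109 had 18.2, 16.6 and 11.4 FPKM in MuPOX08340, 0.94, 1.73 and 2.04 FPKM in MuPOX01907 and 1.12, 1.26 and 1.65 FPKM in Ku70. The flanking POX08106 averaged 28.4 FPKM in MuPOX08340, 12.3 in MuPOX01907 and 28.8 in Ku70, and POX08110 averaged 25.9, 10.3 and 19.3 FPKM in the same strains. By contrast, POX08107 and POX08108 had 9 and 5 reads in MuPOX01907 and 18 and 9 reads in Ku70.

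The run from POX05861 to POX05863 belongs to a longer stretch that was mostly weak in MuPOX08340 and weaker elsewhere. POX05863 measured 58.2, 44.0 and 36.6 FPKM in MuPOX08340, 0.11, 0.05 and 0.11 FPKM in MuPOX01907 and 0.76, 0.33 and 0.27 FPKM in Ku70. POX05862 measured 43.9, 41.9 and 30.2 FPKM in MuPOX08340, 0.20, 0.41 and 0.33 FPKM in MuPOX01907 and 0.40, 0.07 and 0.47 FPKM in Ku70. POX05861 averaged 8.81 ± 1.60 FPKM in MuPOX08340, 0.367 ± 0.115 FPKM in MuPOX01907 and 0.833 ± 0.263 FPKM in Ku70. Among the 18 IDs from POX05849 to POX05866, a range set after its values were seen, 7 were members, and 13 had a separation of at least 2 at any level, which 1.14% of all IDs had. The median of these 18 IDs was 5.58, 5.37 and 3.96 FPKM in MuPOX08340 F, S and T, 0.135, 0.265 and 0.14 FPKM in MuPOX01907 and 0.895, 0.44 and 0.405 FPKM in Ku70. The remaining run held POX09470 (10.9 ± 2.32 FPKM in MuPOX08340, 0.197 ± 0.212 in MuPOX01907, 0.543 ± 0.291 in Ku70), POX09472 (33.2 ± 6.59, 4.05 ± 0.221 and 3.48 ± 0.825 FPKM in that order) and POX09473 (19.3 ± 3.78, 0.233 ± 0.0751 and 0.647 ± 0.913 FPKM), the Ku70 mean of the last resting on 1.70 FPKM in Ku70 F beside 0.08 and 0.16 FPKM in S and T.

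The comparison that the rule left free is MuPOX01907 against Ku70, since membership bounds both strains from above and sets no order between them. In the 6 libraries of MuPOX01907 and Ku70 alone, 54 members passed the filter on low counts (CPM of at least 1 in at least 3 libraries). Of these, 8 were called higher in MuPOX01907 than in Ku70 (14.8%, against 8.72% of all genes tested there) and 5 lower (9.26%, against 11%), by edgeR's quasi-likelihood test with an adjusted p under 0.05 and an absolute log2 fold change of at least 1. The remaining 20 members, with 13 to 122 reads in those 6 libraries together, entered the fit to all 9 libraries only through their MuPOX08340 values, which the rule required to be high. That fit, whose values are given below, called 10 members higher (13.5%, against 9.42% of the 8429 genes tested) and 11 lower (14.9%, against 12.7%), and 6 of the 11 were among the 20. Without Ku70 F the fit gave 12 higher (9.93% of all genes) and 9 lower (12% of all genes), and limma on log2(FPKM + 1), which keeps the scaling as deposited, gave 6 (5.65% of all genes) and 8 (14.3%). In the fit to all 9 libraries the spread per gene rests partly on the MuPOX08340 values, which chose the members. Its SE and adjusted p are thus not free of that choice. With the 6 libraries alone, the edgeR adjusted p was larger for each called member tested there. It was 0.00145 for POX08753, 0.00348 for POX07270, 0.00381 for POX07269 and 0.0449 for POX08699. The calls are given by gene and not as a trait of the members.

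**Figure D5:**
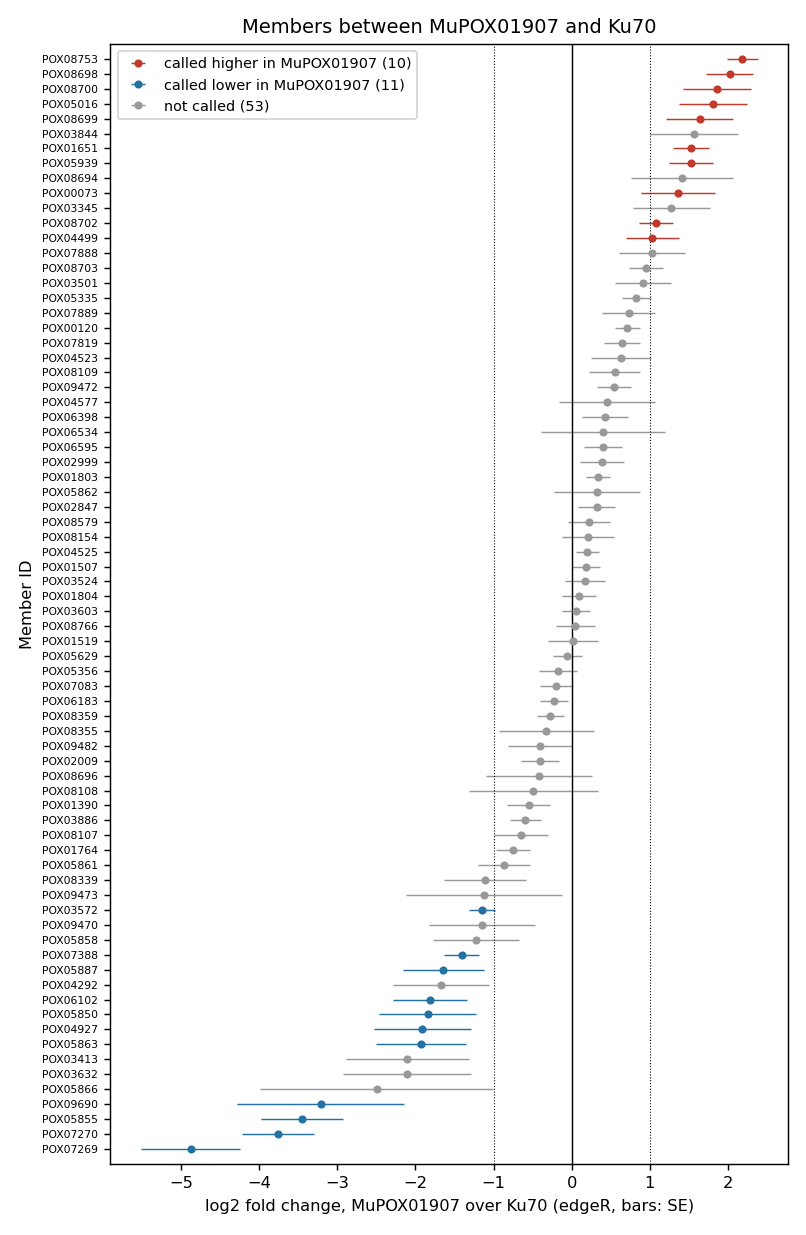
Log2 fold change of each member in MuPOX01907 over Ku70 (edgeR, bars: SE) in order of size, in red where called higher in MuPOX01907 (10), in blue where called lower (11, of which 6 passed the low count filter only through MuPOX08340) and in grey otherwise (53). The members spread from -4.88 to 2.18 on the log2 scale, with 40 above 0 and 34 below.

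The members called higher in MuPOX01907 included 4 of the 7 in the longest run. Fold changes of mean FPKM are as deposited, and log2 fold changes are after TMM scaling. POX08698 rose 3.24-fold in mean FPKM (log2 2.02, SE 0.300, edgeR adjusted p = 0.00113), POX08700 2.89-fold (log2 1.86, SE 0.431, adjusted p = 0.00903), POX08699 2.48-fold (log2 1.64, SE 0.426, adjusted p = 0.0152) and POX08702 1.68-fold (log2 1.08, SE 0.217, adjusted p = 0.00487). POX08699 was not called without MuPOX01907 S (log2 1.46, edgeR adjusted p = 0.0553), and POX08702 fell under the fold minimum without MuPOX01907 F (log2 0.97), without Ku70 F (log2 0.89) and with limma at pseudocounts of 1 and 0.1 (0.75 and 0.76). POX08703 had a log2 fold change of 0.95 (SE 0.224, edgeR adjusted p = 0.00971), under the fold minimum. POX08694 did not pass the test (log2 1.41, SE 0.654, edgeR adjusted p = 0.112), although it was called without Ku70 F (log2 2.93, adjusted p = 0.000457), and POX08696, one of the IDs that passed the filter only through MuPOX08340, had a log2 fold change of -0.42 (SE 0.677). Outside the runs, POX08753 showed the largest rise. It measured 13.0, 13.3 and 12.2 FPKM in MuPOX01907 and 2.49, 4.10 and 4.05 FPKM in Ku70 (log2 2.18, SE 0.198, edgeR adjusted p = 9.71e-05), below the 80.3, 68.2 and 61.2 FPKM of MuPOX08340.

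Further members called higher were POX05016, POX01651, POX05939, POX00073 and POX04499. POX05016 averaged 3.41 ± 1.19 FPKM in MuPOX01907 and 1.21 ± 0.632 FPKM in Ku70 (SD, n = 3; log2 1.80, SE 0.437, edgeR adjusted p = 0.011). POX01651 averaged 117 ± 27.5 FPKM in MuPOX01907 and 50.7 ± 9.21 FPKM in Ku70 (SD, n = 3; log2 1.53, SE 0.227, edgeR adjusted p = 0.00115). POX05939 averaged 4.72 ± 0.391 FPKM in MuPOX01907 and 2.06 ± 0.576 FPKM in Ku70 (log2 1.52, SE 0.280, edgeR adjusted p = 0.00312), and stayed under the fold minimum with limma on log2(FPKM + 1) (0.92). By FPKM, the libraries of MuPOX01907 and Ku70 did not overlap in these 3 members, nor in POX08753, POX08698, POX08699, POX08700, POX08702 and POX00073. In POX04499 they did overlap. Every MuPOX01907 library lay above every Ku70 library in 14.7% of all genes tested. POX00073 (log2 1.36, edgeR adjusted p = 0.0465) lost its call without each library in turn other than Ku70 S, with log2 fold changes from 0.94 without Ku70 F to 1.53. POX04499 (log2 1.03, edgeR adjusted p = 0.0371) lost it without MuPOX08340 S, any MuPOX01907 library, Ku70 S (0.78) or Ku70 T (0.81), and stood at 1.58 without Ku70 F. Neither was called with the MuPOX01907 and Ku70 libraries alone (edgeR adjusted p = 0.084 for POX00073 and adjusted p = 0.0695 for POX04499). The 8 members called higher there are the others named as called higher. Limma called neither POX00073 nor POX04499 at pseudocounts of 1 and 0.1.

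The members called lower in MuPOX01907 included an adjacent pair with the largest falls. POX07269 had 0.36, 0.41 and 0.25 FPKM in MuPOX01907 F, S and T, against 4.69, 22.6 and 10.7 FPKM in Ku70, and 81.7, 131 and 82.4 FPKM in MuPOX08340 (log2 -4.88 for MuPOX01907 over Ku70, SE 0.635, edgeR adjusted p = 0.000609). POX07270 had 2.44, 3.44 and 2.65 FPKM in MuPOX01907, against 19.5, 73.3 and 52.1 FPKM in Ku70, and 312, 420.1 and 303 FPKM in MuPOX08340 (log2 -3.76, SE 0.457, edgeR adjusted p = 0.000426). In both IDs the strains stood in the order MuPOX08340, Ku70, MuPOX01907 without overlap, and S was the highest of the 3 libraries in each strain. The rule sets the place of MuPOX08340, and every MuPOX01907 library lay below every Ku70 library in 42.7% of all genes tested. POX05855, inside the stretch around POX05861, had 6 reads in MuPOX01907 and 87 in Ku70 (log2 -3.45, SE 0.521, edgeR adjusted p = 0.00124, and log2 -4.37 without MuPOX01907 S), POX07388 averaged 0.98 ± 0.114 and 3.27 ± 0.734 FPKM (log2 -1.41, SE 0.230, adjusted p = 0.00175), and POX03572 averaged 9.43 ± 0.165 and 26.2 ± 4.19 FPKM in the same strains (log2 -1.15, SE 0.164, adjusted p = 0.000961).

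The 6 other IDs called lower in the fit to all 9 libraries were among the 20 that passed the filter only through MuPOX08340, and their values are a description. POX09690 had 1 read in MuPOX01907 and 15 in Ku70 (log2 -3.21), POX05863 had 5 and 25 (log2 -1.93), and POX04927 had 8 and 39 (log2 -1.91). POX05850 had 22 and 100 reads (log2 -1.84), POX06102 had 10 and 45 (log2 -1.81) and POX05887 had 11 and 44 (log2 -1.65). The call was lost without any MuPOX01907 library in POX05850 (log2 -1.92, -1.71 and -1.90 without F, S and T), POX05863 (-2.08, -1.67 and -2.06) and POX05887 (-1.22, -1.92 and -1.92), without S or T in POX09690 (-2.74 and -2.75) and POX04927 (-1.99 and -1.53), and without F in POX06102 (-1.56). It was also lost without Ku70 F in POX09690, POX05863, POX05887 and POX05850, at log2 fold changes of -2.70, -1.33, -1.28 and -0.86, without Ku70 T in POX09690 (-3.23), without Ku70 S in POX04927 (-1.50) and without MuPOX08340 S or T in POX05850 (-1.85 each). Limma on log2(FPKM + 1) did not call POX04927, POX05850, POX05863 and POX05887 (-0.75, -0.77, -0.40 and -0.41), whereas limma at a pseudocount of 0.1 did. POX09690 and POX05863 did not pass the filter once any MuPOX08340 library was left out. By FPKM as deposited, every MuPOX01907 library lay below every Ku70 library in each of the 6, as in 42.7% of all genes tested. This order comes from the same libraries as the calls and adds no support to them.

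The 53 members not called include the most abundant. POX01764 averaged 294 ± 46.7 FPKM in MuPOX01907 and 615 ± 166 FPKM in Ku70 and stayed under the fold minimum (log2 -0.75, SE 0.221, edgeR adjusted p = 0.0255), while limma on FPKM as deposited called it lower at both pseudocounts (-1.04 each, adjusted p = 0.00389 and adjusted p = 0.00378). POX06595 averaged 62.4 ± 14.4 and 59.6 ± 19.1 FPKM in the same strains (log2 0.40, SE 0.242, adjusted p = 0.216), and POX08359 had a log2 fold change of -0.27 (SE 0.171, adjusted p = 0.229). POX08339, next to the targeted gene, did not pass the test (log2 -1.11, SE 0.525, edgeR adjusted p = 0.118), its Ku70 libraries lying on both sides of those of MuPOX01907, and was called lower without Ku70 F (log2 -1.58, adjusted p = 4.79e-05). POX04292 was also called lower without Ku70 F (log2 -2.17, edgeR adjusted p = 1.48e-05). By FPKM as deposited, 12 members had every MuPOX01907 library above every Ku70 library (16.2%, against 14.7% of the genes tested) and 23 every MuPOX01907 library below (31.1%, against 42.7%). Without Ku70 F, 19 lay above (25.7%, against 18.1%) and 27 below (36.5%, against 53.8%). TMM scaling raised the median log2 ratio of all genes in this comparison by 0.32.

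Some members differed most between Ku70 F and the other Ku70 libraries. POX05866 had 1.52 FPKM in Ku70 F, 0.07 in S and 0.00 in T, POX08694 had 2.29, 0.37 and 0.33 FPKM, and POX03413 had 4.40, 0.68 and 0.94 FPKM, against 11.5, 12.7 and 11.2 FPKM for POX03413 in MuPOX08340. On the low side, POX04292 had 5.63 FPKM in Ku70 F and 43.0 and 50.7 FPKM in S and T, and POX04577 had 0.15, 1.17 and 1.46 FPKM. POX04292 measured 185, 178 and 156 FPKM in MuPOX08340 and 8.86, 8.96 and 6.86 FPKM in MuPOX01907, so that Ku70 F stood near MuPOX01907 while Ku70 S and T stood between both mutants.

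The remaining 23 members, neither named above for their levels nor called, filled the middle of the range. Their means ran from 9.18 to 389 FPKM in MuPOX08340 (median 29.7), from 0.18 to 136 FPKM in MuPOX01907 (median 5.68) and from 0.54 to 111 FPKM in Ku70 (median 6.33). Their separations lay between 2.12 and 11.3. The log2 fold changes of MuPOX01907 over Ku70 lay between -1.23 and 1.27, with 18 above 0 after TMM scaling, whereas the ratio of mean FPKM as deposited was above 1 in 9. None passed the edgeR test with the fold minimum on all 9 libraries, and POX03345, POX07888 and POX07889 were called higher without Ku70 F, at log2 fold changes of 2.25, 1.72 and 1.17.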

How the data were processed

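Mycelial RNA of Penicillium oxalicum was made into cDNA libraries and read on an Illumina machine, according to the labels. Each deposited file gives, per the file headers, an expected count (estimated reads per gene, nearly all whole numbers) and an FPKM value for 9834 IDs. FPKM were used as the authors deposited them. The submitters' processing notes name RSEM 1.2.12, DESeq2, Bowtie2 2.1.0 and BWA 0.7.10-r789. The sources used here do not give their roles, the genome build, the annotation, the strandedness or the treatment of reads shared by similar genes, so members with close copies or antisense partners carry an added uncertainty.

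Membership, levels, separations and ratios of means come from FPKM. Expected counts were rounded and tested with edgeR 4.0.16 in R 4.3.3 (TMM, quasi-likelihood, CPM of at least 1 in at least 3 libraries, all 9 libraries in 1 fit with strain as factor), which left 8429 genes. Adjusted p-values are Benjamini-Hochberg values over these genes, and calls also required an absolute log2 fold change of at least 1. The SE is the log2 fold change divided by the root of the quasi-likelihood F. Limma 3.58.1 (mean FPKM of at least 1, with a trend) and DESeq2 1.42.0 were alternatives, and the fits were checked on simulated data. Ratios of summed counts carry exact binomial 95% intervals.

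Members and lists were chosen with earlier results of these data known. Named members are the highest 10 in level, the 8 widest in separation, those in runs or near a targeted gene, the 6 largest changes per direction in MuPOX01907 against Ku70, those at the thresholds and those with extreme spread in MuPOX08340 or in Ku70. Runs were flanked by 3 IDs. The other members called in that comparison, the IDs of the stretch from POX05849 to POX05866, the pairs of consecutive IDs and the IDs next to the mirrored rule were named after their values were seen.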

Additional observations from a re-analysis of the deposited data

How the results depend on the processing

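The number of members was 67 with FPKM rescaled by TMM, all of them among the 74, and 64 on TMM-scaled CPM, 62 of them shared. It was 121 at a separation of 1.5, 49 at a separation of 3, 61 with a floor of 10 FPKM, 91 with a floor of 1 FPKM and 235 where group means replaced the lowest and highest library. Leaving out each library in turn gave 74 to 88. The members in runs, 16 in all, numbered 25 at a separation of 1.5, 7 with a floor of 10 FPKM, 26 with a floor of 1 FPKM and 32 with group means, and 16 to 21 when a library was left out.

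In MuPOX01907 against Ku70, the members called higher numbered 6 with limma on log2(FPKM + 1), and 7 to 12 when a library was left out. Only 64 members passed the low count filter when any MuPOX08340 library was left out, against 74 when another library was. The members called lower numbered 5 with the MuPOX01907 and Ku70 libraries alone, where only 54 members passed the filter, and 6 to 13 when a library was left out. The DESeq2 test called 12 members higher and 14 lower, against 900 and 1127 of 9718 genes. Limma at a pseudocount of 0.1 called 7 higher and 14 lower, against 521 and 1473 of 8589 genes. The median log2 fold change of the members, 0.07 in the fit to all 9 libraries, was -0.12 and -0.22 with limma at pseudocounts of 1 and 0.1, 0.32 with both groups alone (54 members), and 0.0153 to 0.171 when a library was left out, so that its sign is not settled. Over all genes tested the median was -0.03 in the fit to all 9 libraries and -0.02 with both groups alone. With limma it was -0.29 and -0.31. The member median lay above it in each of these settings, a difference that was not tested. With the letters F, S and T as a replicate block, 13 members were called higher and 10 lower: POX03345, POX07888 and POX08694 gained a call (log2 1.42, 1.19 and 1.66) and POX05887 lost it (edgeR adjusted p = 0.0542). The deviations of same-letter libraries had correlations of -0.0688, -0.066 and 0.0909 between MuPOX01907 and Ku70, so the letters are not taken as pairs in this comparison, although they were 0.624, 0.166 and 0.505 between MuPOX08340 and MuPOX01907, which share the fit. Of the 21 calls, 10 held under each setting that was run for them: POX01651, POX05016, POX08698, POX08700 and POX08753 as higher and POX03572, POX05855, POX07269, POX07270 and POX07388 as lower. Without Ku70 F, a setting chosen after seeing the data for this count, the members with every MuPOX01907 library above Ku70 numbered 19 and those below 27, and the median ratio of MuPOX08340 over Ku70 was 8.79. The fold change of POX08696, not called, turned to 0.48 without Ku70 S and was -0.92 without Ku70 T, the ends of its range when a library was left out. The cause of these changes was not tested. Members with fewer than 50 reads in both strains give folds that depth limits.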
